A study of Mus musculus with 6 samples.

Results

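Malat1 and Neat1 are long noncoding RNAs that stay in the nucleus, and Nono, Sfpq and Pspc1 encode proteins of the nuclear bodies that Neat1 builds. These 5 genes, of 41128 genes in the deposited table, were selected by name and matched on the Ensembl identifier without its version. They were chosen from these same libraries with earlier results known, so their values are given as a description, with no test of their own. All 5 were among the 13597 genes with a mean level of 1 RPM or more, the minimum for the all-gene fit; RPM are reads per gene after each library was scaled to the same total.

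The libraries held poly(A) RNA of marrow cells of C57BL mice, sorted by the submitters as LTR-HSC, the long-lived stem cells of blood. The sorted cells lacked lineage markers, CD41 and CD48, and carried Sca1, c-Kit and CD150. The treated animals received YH250, a small molecule that the submitters describe as an antagonist of the binding between p300 and catenin, at 2 mg/kg under the skin, and the control animals received the vehicle DMSO. Marrow was taken 16 h later in both groups. No genotype, transgene or age is given in the labels, and the number of animals behind a library and any pooling are not given either. Each group had 3 libraries, numbered 1 to 3. What a number stands for is not stated, so the spread given here is between libraries, and part or all of it may be technical.

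Malat1 is one of the most abundant nuclear RNAs of mammalian cells and gathers in nuclear speckles, where splicing factors are stored. Neat1 is the scaffold of paraspeckles: its long form, cut at the 3′ end by RNase P, holds the body together, and its short, polyadenylated form ends early in the same transcription unit. Nono, Sfpq and Pspc1 are the DBHS family of RNA-binding proteins, which pair with each other and coat Neat1. In cell lines Nono and Sfpq are required for paraspeckles to form, and Pspc1 is a marker of the body that is not required.

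Reads were assigned to genes by the authors, and the smallest step between low values put 1 RPM at 22.0 to 31.2 reads. Between 12716 and 13459 genes reached 1 RPM per library, and the genes together took 77.9%, 84.9% and 93.6% of the scaling total in YH250 1, 2 and 3, against 70.0%, 75.6% and 95.9% in DMSO 1, 2 and 3. A library with a low share has low RPM for each gene, so the main values were also computed per total of the genes. Transcripts of the sort markers did not follow the gate in every library. Slamf1, which encodes CD150, stood at 31.5, 3.92 and 1.54 RPM in YH250 1, 2 and 3 and at 35.5, 0.515 and 4.69 RPM in DMSO 1, 2 and 3. Cd48 stood at 13.1, 66.9 and 252 RPM in YH250 and at 10.2, 31.5 and 258 RPM in DMSO. Itga2b, which encodes CD41, ran the other way over the numbers, at 37.4, 26.3 and 7.13 RPM in YH250 1, 2 and 3. In DMSO 1, 2 and 3 Itga2b was at 43.7, 15.3 and 5.65 RPM. YH250 2 stood apart in the 10 markers of marrow stroma and endothelium, whose summed level was 429 RPM there, against 100 to 134 RPM in the other 5 libraries, and none of the 10 was at 0 in all libraries. The member estimates are therefore given also without it.

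Malat1 (ENSMUSG00000092341) is a gene of 6983 bp at chr19:5795690-5802672 on the minus strand of GRCm38, the assembly also called mm10, in GENCODE M21. Its main transcript there is a single exon. Neat1 (ENSMUSG00000092274) occupies chr19:5824708-5845478 on the same strand, 22.0 kb upstream of Malat1 in the direction of transcription, and its long form is a single exon of 20771 bp. The 3′ end of Malat1 bears on what a poly(A) library can capture: mature Malat1 has no added tail and ends in a genome-encoded stretch rich in A, released by RNase P, with a small tRNA-like RNA following it. The stretch is shown from the GENCODE M21 transcript (GRCm38, chr19:5795968-5796059, minus strand), with the longest run of A in the last 400 bases of the transcript in capitals. The run has 12 bases and lies 298 bases before the annotated end.
Malat1 3′ end: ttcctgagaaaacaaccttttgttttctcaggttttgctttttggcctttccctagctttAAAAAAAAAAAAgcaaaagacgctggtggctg

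Promoter windows of 300 bases, from 250 before to 50 after the start, were in the RefSeq table (GRCm38.p6) for 4 of the 5 genes: Malat1, Nono, Sfpq and Pspc1. The windows of Malat1 and Nono are shown because Malat1 has the highest level and Nono is the member whose groups did not overlap with YH250 higher, and because they hold different motifs. In the Malat1 window (chr19:5802623-5802922, minus strand) the capitals mark TGACG on either strand, the core of the cAMP response element that recruits CREB, a factor whose partners include p300.
Malat1 promoter: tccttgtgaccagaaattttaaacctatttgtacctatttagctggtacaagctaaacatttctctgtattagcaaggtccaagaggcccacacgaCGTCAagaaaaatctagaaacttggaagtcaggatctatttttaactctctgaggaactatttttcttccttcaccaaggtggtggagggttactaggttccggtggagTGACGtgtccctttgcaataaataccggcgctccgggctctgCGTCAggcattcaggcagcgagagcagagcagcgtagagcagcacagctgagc
In the Nono window (chrX:101429401-101429700, plus strand) the capitals mark CCAAT, the box bound by NF-Y, on either strand. This window is set by the RefSeq start and lies inside the Nono gene of GENCODE M21, which starts at 101429318. Its matches are therefore not upstream of that GENCODE start.
Nono promoter: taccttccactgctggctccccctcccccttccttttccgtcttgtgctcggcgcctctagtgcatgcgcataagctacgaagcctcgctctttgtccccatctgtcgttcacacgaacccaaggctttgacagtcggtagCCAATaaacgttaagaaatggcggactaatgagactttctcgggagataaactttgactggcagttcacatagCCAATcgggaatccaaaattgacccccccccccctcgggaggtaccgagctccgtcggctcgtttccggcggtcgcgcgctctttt
TGACG had 3 matches in the Malat1 window and 0 in those of Nono, Sfpq and Pspc1, and 20.8% of 32851 windows of 27025 genes held it. CCAAT had 2 matches at Nono, 4 at Sfpq, 1 at Pspc1 and 0 at Malat1, and 37.4% of all windows held it. CTTTGAT, the core bound by the TCF/LEF factors through which β-catenin acts, had 0 matches in all 4 windows and was in 3.73% of all windows. All 3 motifs were searched on both strands, no match of one overlapped another, and a match is only a match of letters.

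Neat1 had a lower level in YH250 than in DMSO in every pairing of libraries. It was at 67.6, 37.2 and 52.1 RPM in YH250 1, 2 and 3, and at 124, 73.3 and 83.7 RPM in DMSO 1, 2 and 3. The highest YH250 library lay below the lowest DMSO library, by less than the spread within either group. The mean was 52.3 ± 15.2 RPM in YH250 and 93.6 ± 26.6 RPM in DMSO (SD, n = 3 each), a difference in means of -44.1%. On the log2(RPM + 1) scale the limma estimate was -0.83 ± 0.30 (SE) for YH250 minus DMSO. Among all genes tested 3.68% were lower in YH250 with no overlap of the groups, and 3.20% (435 genes) had a log2 difference below that of Neat1. Per total of the genes the groups of Neat1 only just failed to overlap. The highest YH250 library (YH250 1, 86.7 RPM) and the lowest DMSO library (DMSO 3, 87.2 RPM) were nearly level on that scale. Between 931 and 3225 reads per library stood behind Neat1, which does not give the number of molecules sampled. In bulk samples such as these, fewer cells that hold an RNA and less of that RNA per cell cannot be told apart.

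Malat1 was at 6732, 4896 and 7588 RPM in YH250 1, 2 and 3, and at 8301, 7003 and 7502 RPM in DMSO 1, 2 and 3. The groups overlapped: YH250 3 was above DMSO 2 and DMSO 3, and YH250 2 was the lowest of all 6. The mean was 6405 ± 1376 RPM in YH250 and 7602 ± 655 RPM in DMSO (SD, n = 3 each), and the estimate was -0.27 ± 0.20 (SE, log2). Malat1 ranked 3, 6 and 6 among all genes by RPM in YH250 1, 2 and 3, and 2, 3 and 4 in DMSO 1, 2 and 3. It took 0.864%, 0.577% and 0.811% of the reads in genes in YH250, and 1.19%, 0.926% and 0.782% in DMSO.

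No gene of the 13597 was called between YH250 and DMSO (limma, Benjamini-Hochberg adjusted p under 0.05), so 0% of genes were called. The smallest adjusted p was 0.999, and 231 genes had an unadjusted p under 0.05. With the replicate number as a block 0 genes were called and 1012 had an unadjusted p under 0.05.

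**Figure D1:**
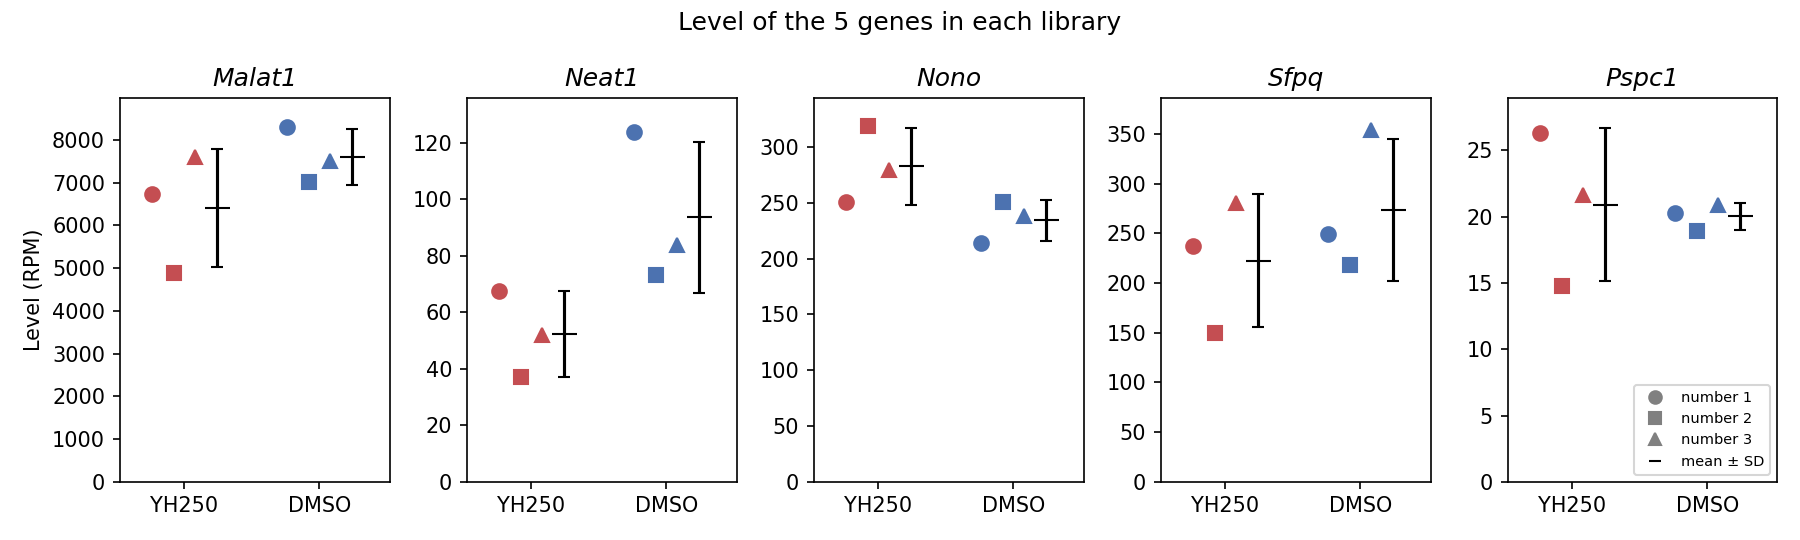
Level of Malat1, Neat1, Nono, Sfpq and Pspc1 in RPM (vertical axes, from 0) in the 3 YH250 libraries (red, left) and the 3 DMSO libraries (blue, right). Marker shape gives the replicate number and the black bars give the mean ± SD. Neat1 lies at 37.2 to 67.6 RPM in YH250 and at 73.3 to 124 RPM in DMSO, with no overlap, while the groups of Malat1, Sfpq and Pspc1 overlap.

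The ratio of the 2 RNAs does not depend on how a library was scaled. Neat1 stood at 1.00%, 0.760% and 0.686% of the Malat1 RPM in YH250 1, 2 and 3, and at 1.49%, 1.05% and 1.12% in DMSO 1, 2 and 3. The groups did not overlap, with 1.00% as the highest YH250 value and 1.05% as the lowest DMSO value. The mean ratio was 0.817 ± 0.166% in YH250 and 1.22 ± 0.239% in DMSO (SD, n = 3 each).

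The levels of the 2 RNAs can be set against each other only per length. Per kb of exon Malat1 had 917 ± 197 RPM in YH250 and 1089 ± 93.7 RPM in DMSO. Neat1 had 2.52 ± 0.731 RPM per kb in YH250 and 4.51 ± 1.28 RPM per kb in DMSO if its reads are spread over the long form. Spread over the 3004 bp of the short transcript Neat1-202 (chr19:5842307-5845476), the same reads give 17.4 ± 5.06 RPM per kb in YH250 and 31.2 ± 8.86 RPM per kb in DMSO. The table holds 1 value per gene, so the short and the long form of Neat1 are not separated, and a poly(A) library favours the short one.

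The 3 paraspeckle protein genes had no shared direction. Nono (ENSMUSG00000031311, chrX:101429318-101448591, plus strand) had the higher mean in YH250: it was at 250.5, 319 and 279 RPM in YH250 1, 2 and 3, and at 214, 250.2 and 238 RPM in DMSO 1, 2 and 3. The lowest YH250 library and the highest DMSO library were nearly level, at 250.5 RPM and 250.2 RPM, so the groups only just failed to overlap, and per total of the genes they overlapped. The mean was 283 ± 34.4 RPM in YH250 and 234 ± 18.4 RPM in DMSO (SD, n = 3 each), with an estimate of 0.27 ± 0.20 (SE, log2). Of all genes tested, 3.79% were higher in YH250 with no overlap of the groups.

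Sfpq (ENSMUSG00000028820, chr4:127021324-127037013, plus strand) was at 237, 150 and 281 RPM in YH250 1, 2 and 3, and at 249, 218 and 354 RPM in DMSO 1, 2 and 3. The groups overlapped, YH250 2 being lowest and DMSO 3 highest. The mean was 223 ± 66.4 RPM in YH250 and 274 ± 71.3 RPM in DMSO (SD, n = 3 each), with an estimate of -0.31 ± 0.30 (SE, log2), or -0.11 without DMSO 3. Pspc1 (ENSMUSG00000021938, chr14:56720710-56778316, minus strand) was the lowest of the 3, at 26.3, 14.8 and 21.6 RPM in YH250 1, 2 and 3 and at 20.3, 18.9 and 20.9 RPM in DMSO 1, 2 and 3. Its YH250 libraries lay on both sides of the DMSO libraries. The mean was 20.9 ± 5.80 RPM in YH250 and 20.01 ± 1.02 RPM in DMSO (SD, n = 3 each), and the estimate was 0.03 ± 0.31 (SE, log2), with a sign that turned to -0.07 per total of the genes.

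Per kb of exon Malat1 was far above the rest in both groups, Nono and Sfpq came next, and Neat1 over its long form and Pspc1 were lowest. The order within these last pairs was not the same in YH250 as in DMSO. Nono had 64.6 ± 7.87 RPM per kb in YH250 and 53.5 ± 4.21 RPM per kb in DMSO. Sfpq had 46.9 ± 14.0 RPM per kb in YH250 and 57.7 ± 15.0 RPM per kb in DMSO, so these neighbours in the order did not differ beyond their spread. Pspc1 had 3.65 ± 1.01 RPM per kb in YH250 and 3.49 ± 0.178 RPM per kb in DMSO, and its spread overlapped that of Neat1 over the long form in both groups.

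YH250 2 had the lowest Malat1, Neat1, Sfpq and Pspc1 and the highest Nono of all 6 libraries, and it is also the library with the raised stromal and endothelial markers. In it the stromal genes Cxcl12 and Lepr were at 202 RPM and 58.2 RPM. Without YH250 2 the estimates, as log2 differences for YH250 minus DMSO, were -0.61 for Neat1, -0.09 for Malat1, 0.18 for Nono, -0.05 for Sfpq and 0.24 for Pspc1. The difference of Neat1 thus stayed below that of the other members in that set of libraries, and those of Malat1 and Sfpq came close to 0. Whether the cells behind these markers had a part in the member levels was not tested.

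Markers of other cells also leaned with treatment over the 6 libraries, though not every list leaned the same way and none was called. All 7 tested B cell markers and 6 of the 8 T and NK cell markers had the higher mean log2 level in YH250, with median log2 differences of 0.65 and 1.43. Without DMSO 1 it was 1 of 7 (median -0.40) and 4 of 8 (0.59). Without YH250 3 it was 3 of 7 (-0.05) and 5 of 8 (0.85), so the lean of the B cell markers was not kept without either library. At all 3 numbers 1 of the 7 B cell markers and 3 of the 8 T and NK cell markers were higher in YH250, against 16.1% of all genes. Of the tested mast cell and basophil markers 4 of 4 were higher (median 1.18), of the myeloid markers 6 of 9 (0.23). Stromal and endothelial markers were higher in 7 of 9 (0.29), but in 2 of 9 (-0.12) without YH250 2. Erythroid and megakaryocyte markers went the other way, with 3 of 8 higher and 5 lower (-0.22). Kit, which encodes the sort marker c-Kit, was at 218, 160.1 and 130 RPM in YH250 1, 2 and 3 and at 318, 265 and 213 RPM in DMSO 1, 2 and 3, with an estimate of -0.66 ± 0.26 (SE, log2) and overlapping groups. It was lower in YH250 at all 3 numbers, as Neat1 was. Ly6a, which encodes the sort marker Sca1, went the other way, at 0.47 ± 0.45 (SE, log2), and was higher at all 3 numbers. Of the 10 genes listed for the sort and for stem cells, 4 had the higher and 6 the lower mean log2 level in YH250, with a median of -0.07. The part of these markers in the lower level of Neat1 was not tested.

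Libraries of the same number deviated together over all genes, so the members are also given within numbers. Neat1 was lower in YH250 at all 3 numbers, by log2 differences of -0.86, -0.96 and -0.67 at numbers 1, 2 and 3. Sfpq was also lower at all 3, at -0.07, -0.53 and -0.33. Of all genes tested 15% were lower at all 3 numbers. Nono was higher at all 3 (0.23, 0.35 and 0.23), as were 16.1% of all genes. Malat1 had differences of -0.30, -0.52 and 0.02, and Pspc1 of 0.36, -0.33 and 0.05, so neither kept 1 direction.

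**Figure D2:**
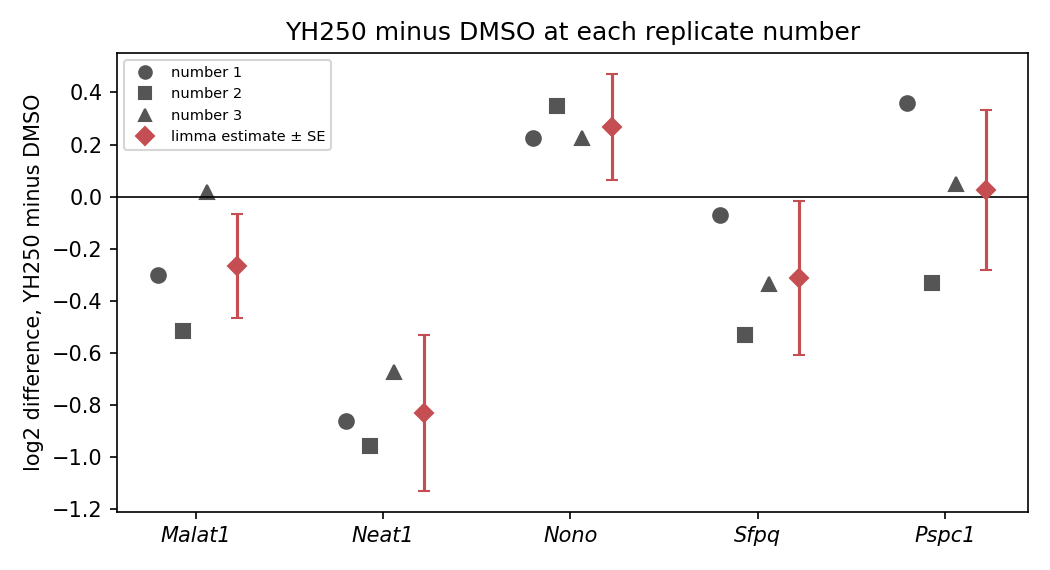
Difference in log2(RPM + 1), YH250 minus DMSO, for each of the 5 genes (horizontal axis) at replicate numbers 1, 2 and 3 (grey) and as the limma estimate ± SE over all 6 libraries (red). The 3 values of Neat1 lie between -0.96 and -0.67, those of Nono between 0.23 and 0.35, and those of Malat1 and Pspc1 fall on both sides of 0.

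The members were also set between the numbers, with 2 libraries per number and treatment as a second term. For number 3 minus number 1 the log2 difference was 0.01 ± 0.20 for Malat1, -0.46 ± 0.22 for Neat1, 0.15 ± 0.18 for Nono, 0.37 ± 0.19 for Sfpq and -0.12 ± 0.33 for Pspc1 (SE). With the scaling of the authors none of the 5 was called in this contrast, in which 5.6% of all genes were called higher in number 3 and 2.96% lower. Per total of the genes the median of all genes for number 3 minus number 1 was -0.28, against 0.04 with the scaling of the authors, and the differences became -0.35 for Malat1, -0.82 for Neat1, -0.20 for Nono, 0.01 for Sfpq and -0.46 for Pspc1. On that scale Neat1 passed the threshold (limma adjusted p = 0.0482), and after quantile normalization Malat1 did (-0.65; adjusted p = 0.00268), so whether either is called between numbers 3 and 1 depends on the scaling. The split of calls turned with it, to 470 higher and 900 lower, against 761 higher and 403 lower before.

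For number 3 minus number 2 Sfpq was the 1 member called, at 0.80 ± 0.19 (SE, log2; limma adjusted p = 0.0426), where 6.31% of all genes were called. It was above 0 in all 14 other settings, between 0.54 and 0.96, but was called in 5 of the 14. The call was lost without YH250 2, YH250 3 or DMSO 3, at adjusted p = 0.221, 0.0701 and 0.123 (limma), and per total of the genes (0.0902). For number 2 minus number 1 the differences ran from -0.80 for Neat1 to 0.29 for Nono, and none of the members was called, as against 0.199% of all genes. The numbers differ in the sort markers and in lymphoid genes as well: the 8 B cell markers summed to 170, 288 and 810 RPM in YH250 1, 2 and 3 and to 64.0, 269 and 616 RPM in DMSO 1, 2 and 3. The 8 T and NK cell markers summed to 121, 170 and 408 RPM in YH250 and to 53.4, 92.8 and 451 RPM in DMSO, and none of these 16 genes was at 0 in all libraries. Their part in the differences of the members between numbers was not tested.

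With the scaling of the authors Neat1 and Nono ran in opposite directions over the 6 libraries. The Pearson correlation of their log2(RPM + 1) was -0.99, that of Neat1 with Malat1 0.82, and that of Malat1 with Nono -0.84. Sfpq went with Malat1 at 0.82 and with Neat1 at 0.58. These are descriptions over 6 libraries that share treatment, number and scaling, and YH250 2 lies at one end of the range of all 5 members. Per total of the genes Neat1 was at 86.7, 43.8 and 55.6 RPM in YH250 1, 2 and 3. In DMSO 1, 2 and 3 it was at 177, 97.0 and 87.2 RPM. Nono was at 321, 376 and 298 RPM in YH250 and at 306, 331 and 249 RPM in DMSO. On that scale the order of Nono was no longer the reverse of that of Neat1, and the correlation was not computed. Neat1 stood at 27.0%, 11.7% and 18.7% of the Nono RPM in YH250 1, 2 and 3, and at 57.8%, 29.3% and 35.1% in DMSO 1, 2 and 3. That these groups did not overlap adds nothing. It follows from Neat1 being lower and Nono higher in YH250, each already with no overlap. Sfpq stood at 80.8 ± 29.4% of the Nono RPM in YH250 and at 117 ± 30.7% in DMSO (SD, n = 3 each), and these groups overlapped.

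**Figure D3:**
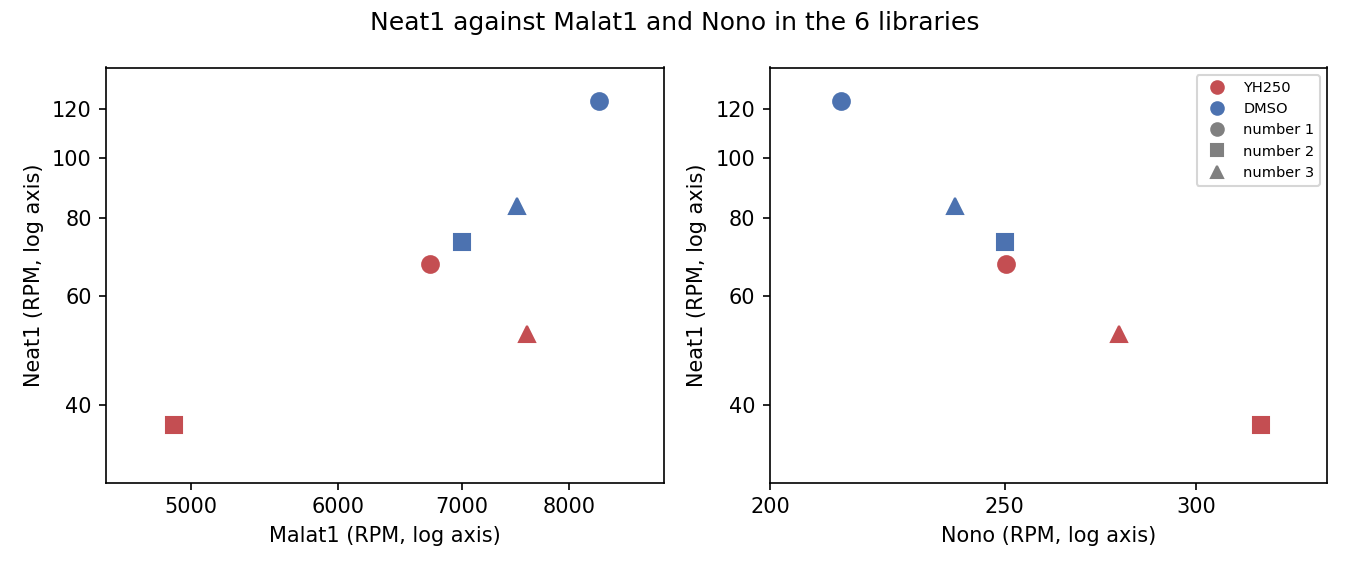
Neat1 (vertical, RPM, log axis) against Malat1 (left panel) and Nono (right panel), both in RPM on log axes, in the 3 YH250 libraries (red) and the 3 DMSO libraries (blue). Marker shape gives the replicate number. With the scaling of the authors Neat1 is lower where Nono is higher over the 6 libraries. YH250 2, at 37.2 RPM of Neat1, is at the end of both panels.

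Among the 8953 genes averaging 10 RPM or more, those whose log2 level followed Malat1 most closely over the 6 libraries were Dusp11 (r = 0.991), an RNA phosphatase, then Cdkal1, a tRNA-modifying enzyme, Ccser2, Carf and Tcf20 (0.983). Those running most against Malat1 included Rchy1 (-0.991), a ubiquitin ligase, Chtf8, Ppwd1 and Cdc42ep3 (-0.982). Those nearest to Neat1 were Exoc4 (0.998), a subunit of the exocyst, then Zc3h7b, Zfyve27, Akap13 and Furin (0.981). Nono (-0.992) was among the genes running most against Neat1, after Ifi47 (-0.999), Cct5 (-0.996), a chaperonin subunit, and Uqcrc2 (-0.995), which were named after their values were seen. For Pspc1, with no clear difference between the groups, the nearest gene was Brd3 at 0.972, below the values listed for Malat1 and Neat1. Cdc42se1 ran most against Pspc1, at -0.994, so a value near theirs was reached without such a difference. All these correlations are with the scaling of the authors.

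Other nuclear long noncoding RNAs mostly had lower means in YH250, as Malat1 and Neat1 had, though none was called. Of 21 listed, 20 were in the table and 16 were tested. In 13 of the 16 the mean log2 level was lower in YH250 and in 3 higher, with a median of -0.39, against 48.3% of genes lower and a median of 0.02 over all genes tested. Per total of the genes that median was -0.07, and after quantile normalization it was -0.01, which also bears on the counts per list that follow. The split was 13 lower per total of the genes and 12 after quantile normalization. Without YH250 2 it was 11 of 16 with a median of -0.14, and without DMSO 1 11 of 16 with a median of -0.20. Firre (-0.002 ± 0.51, SE) and Gas5 (-0.01 ± 0.22, SE), counted among the 13 lower, were nearly level between the groups. The groups did not overlap for 2 of the 16, both lower, where 3.68% of all genes were lower with no overlap. At all 3 numbers 6 were lower and 0 higher, against 15% and 16.1% of all genes.

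Xist, which coats the inactive X chromosome, was at 276, 229 and 218 RPM in YH250 1, 2 and 3, and at 395, 349 and 371 RPM in DMSO 1, 2 and 3. Kcnq1ot1, which silences an imprinted domain from the paternal chromosome, was at 234, 292 and 194 RPM in YH250 and at 556, 405 and 318 RPM in DMSO. In both, each YH250 library was below each DMSO library, and the log2 estimates were -0.63 ± 0.20 for Xist and -0.81 ± 0.27 for Kcnq1ot1 (SE), close to that of Neat1. Xist and Tsix overlap on opposite strands, as do Kcnq1ot1 and Kcnq1, and whether strand was used in the counting is not stated. Dleu2, the host transcript of microRNAs that restrain the cell cycle, had an estimate of -0.45 ± 0.32 with overlapping groups. Tug1 (0.31 ± 0.28), Rian (0.44 ± 0.61) and Rn7sk (0.09 ± 0.44) had the higher means in YH250. Meg3, an imprinted RNA, was called lower in number 3 than in number 1, at -3.34 (log2; limma adjusted p = 0.00556), and was called in 11 of 14 other settings; without DMSO 1 or DMSO 3 the adjusted p was 0.0697 and 0.0879. Meg3 stood at 7.73, 3.27 and 0.292 RPM in YH250 1, 2 and 3 and at 28.9, 5.26 and 0.957 RPM in DMSO 1, 2 and 3. Both libraries of number 3 were thus below 1 RPM. The size of its difference hung on the pseudocount, at -4.24 with 0.25 and -1.89 with 5. Ftx (1.32) and Pvt1 (1.75) had positive differences for number 3 minus number 1 that were not called.

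The list of 27 other paraspeckle proteins showed no such lean with the scaling of the authors. A total of 11 had the higher and 16 the lower mean in YH250, with a median log2 difference of -0.05, and 20 were lower per total of the genes or after quantile normalization. The groups did not overlap for 3 lower and 1 higher gene of the 27, where 3.68% of all genes were lower and 3.79% higher with no overlap, so the 1 higher gene is near the share of all genes. Dazap1, an RNA-binding protein, was at 38.0, 37.4 and 39.5 RPM in YH250 1, 2 and 3 and at 51.1, 44.7 and 43.8 RPM in DMSO 1, 2 and 3. Rbm14, which is required for paraspeckles in cell lines, had 27.0 ± 1.70 RPM in YH250 and 31.4 ± 2.67 RPM in DMSO (SD, n = 3 each), with YH250 3 and DMSO 3 level at 28.4 RPM. Rbm12 had 26.0 ± 0.698 RPM in YH250 and 31.5 ± 2.64 RPM in DMSO. Hnrnpa1, a splicing repressor, was the 1 higher gene, at 521, 545 and 549 RPM in YH250 and at 447, 429 and 504 RPM in DMSO. Rbmx had an estimate of 0.44 ± 0.28 with overlapping groups. Dazap1, Rbm14, Rbm12, Hnrnpa1 and, below, Srsf6 were named for their groups after their values were seen.

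Between numbers, Srsf10 was called higher in number 3 than in number 1 (0.68, log2; limma adjusted p = 0.0489) and Cirbp, a cold-inducible RNA-binding protein, lower (-0.85, adjusted p = 0.0299). The call of Srsf10 held in 5 and that of Cirbp in 10 of 14 other settings. Both were lost without YH250 1, DMSO 1 or DMSO 3, at adjusted p (limma) of 0.176, 0.381 and 0.172 for Srsf10 and 0.0942, 0.256 and 0.216 for Cirbp, and Srsf10 also without YH250 3 (0.114). The estimate of Srsf10 was 0.32 per total of the genes and 0.26 after quantile normalization (adjusted p = 0.25 and 0.416), so its call depended on the scaling. Akap8l had -0.85 in this contrast and was not called.

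The 5 genes that set which form of Neat1 is made did not move together. Nudt21, Cpsf6 and Cpsf7 are subunits of cleavage factor I, which favours the short form, Hnrnpk works against it, and Tardbp favours the short form. Hnrnpk (0.33 ± 0.24) and Nudt21 (0.30 ± 0.31) had the higher means in YH250, and Cpsf6 (-0.16 ± 0.25), Tardbp (-0.27 ± 0.28) and Cpsf7 (-0.72 ± 0.37) the lower ones, and the groups of all 5 overlapped. Cpsf7 was at 41.1, 20.9 and 61.0 RPM in YH250 1, 2 and 3, and at 56.3, 57.5 and 75.6 RPM in DMSO 1, 2 and 3. YH250 2 was again the lowest library for it, and without it the estimate was -0.31.

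Of 13 genes that cut or bind the Malat1 3′ end, 12 were tested, and 8 had the higher and 4 the lower mean in YH250, with a median of 0.05 that turned to -0.03 per total of the genes. These are mainly the subunits of RNase P, with RNase Z (Elac2) and Mettl16, which binds the Malat1 triple helix in human cells. No groups were apart. Rpp30 had an estimate of 0.32 ± 0.29, Rpp38 of -0.33 ± 0.28 and Mettl16 of -0.27 ± 0.25. Rpph1, the RNA subunit of RNase P, which has no poly(A) tail, was at 1.72 to 3.54 RPM in YH250 and at 1.73 to 3.23 RPM in DMSO. None of the 12 was called between numbers 3 and 1, where Pop5 (0.71) had the highest estimate.

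Of 23 nuclear speckle proteins, 11 had the higher and 12 the lower mean in YH250, with a median of -0.03, and 20 were lower per total of the genes or after quantile normalization. Srsf6, a splicing factor, was the 1 gene of 23 whose groups were apart, near the share of all genes (3.68% lower and 3.79% higher), at 281, 285 and 289 RPM in YH250 1, 2 and 3 and at 295, 340.1 and 341 RPM in DMSO 1, 2 and 3. Son, a core protein of speckles, had an estimate of -0.30 ± 0.26, Luc7l3 of -0.30 ± 0.26 and Srsf4 of 0.34 ± 0.25, with overlapping groups. Srsf3 was called higher in number 3 than in number 1 (0.79, log2; limma adjusted p = 0.0353), in 8 of 14 other settings also, but not without YH250 1, DMSO 1 or DMSO 3 (adjusted p = 0.0642, 0.483 and 0.0558). Its estimate was 0.44 per total of the genes and 0.27 after quantile normalization, where the limma adjusted p was 0.115 and 0.317. Srsf7 (0.58) and Srsf1 (0.59) were not called in that contrast.

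**Figure D4:**
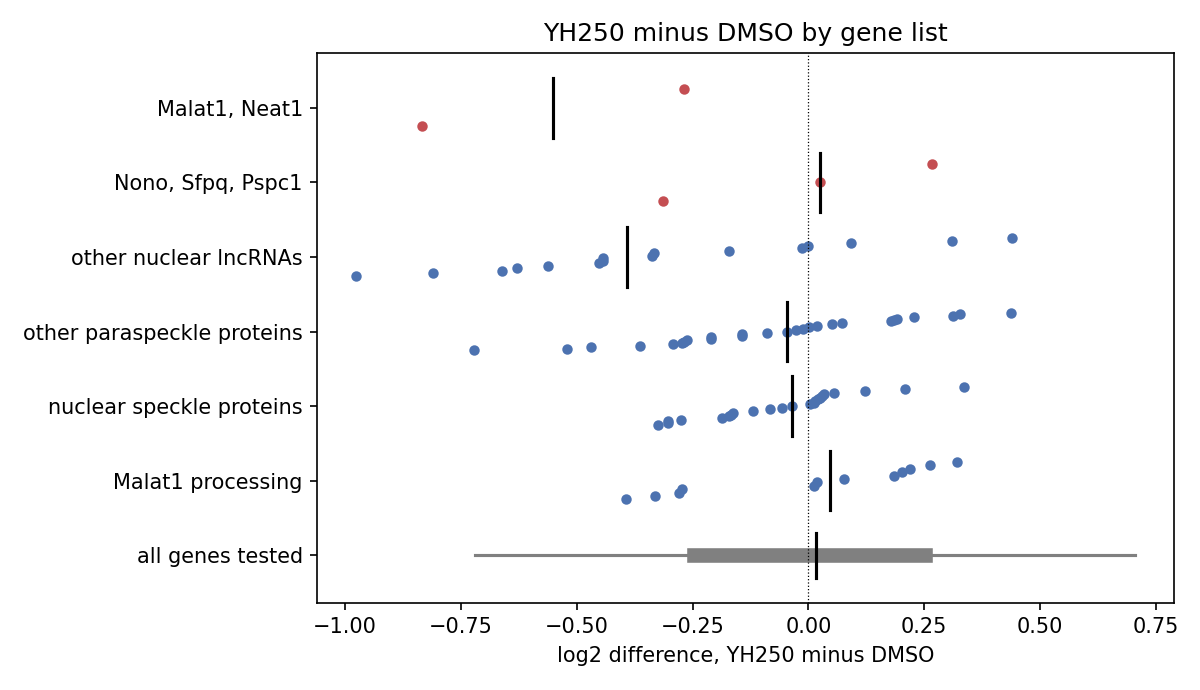
Log2 difference, YH250 minus DMSO (horizontal axis), for each tested gene of 6 lists (points; red for the 5 members) with the list median (black line). The bottom row shows the median, the interquartile range (thick grey bar) and the 5th to 95th percentile (thin grey line) of all 13597 genes. The 16 other nuclear long noncoding RNAs have a median of -0.39 and the 27 other paraspeckle proteins one of -0.05.

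Genes around Malat1 and Neat1 did not as a set share the lower level of Neat1. Of the genes of the table reported here, 19, Malat1 and Neat1 included, start within 100 kb of either. Of these 6 are at 0 in all libraries, and 8 besides Malat1 and Neat1 were tested. The groups of all 8 overlapped, 5 having the higher and 3 the lower mean in YH250. Frmd8, which binds the iRhom proteins and is the next tested gene upstream of Neat1, stood at 39.0, 91.2 and 27.6 RPM in YH250 1, 2 and 3, and at 32.3, 35.4 and 22.3 RPM in DMSO 1, 2 and 3. Its estimate of 0.63 ± 0.42 was the highest of the 8, with YH250 2 far above the rest; without that library it was 0.15. Ltbp3, which binds latent TGF-β, had the lowest, at -0.62 ± 0.47. It was lower in YH250 at all 3 numbers, as Neat1 was, while Frmd8 and Dpf2 were higher at all 3 and the others were mixed. Slc25a45 (0.54), Dpf2 (0.33), Ehbp1l1 (0.20), Fam89b (0.15), Tigd3 (-0.14) and Sssca1 (-0.21) lay between. The antisense transcript Frmd8os, just beyond the start of Neat1, was below the minimum, at 0 to 1.65 RPM. Between numbers 3 and 1, Ltbp3 (-1.40; limma adjusted p = 0.0202) and Dpf2 (-0.93; adjusted p = 0.0386) were called lower, in 8 and 10 of 14 other settings also. Without DMSO 1 or DMSO 3 the limma adjusted p was 0.119 and 0.179 for Ltbp3 and 0.395 and 0.375 for Dpf2, and without YH250 1 or YH250 3 it was 0.155 and 0.141 for Ltbp3.

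**Figure D5:**
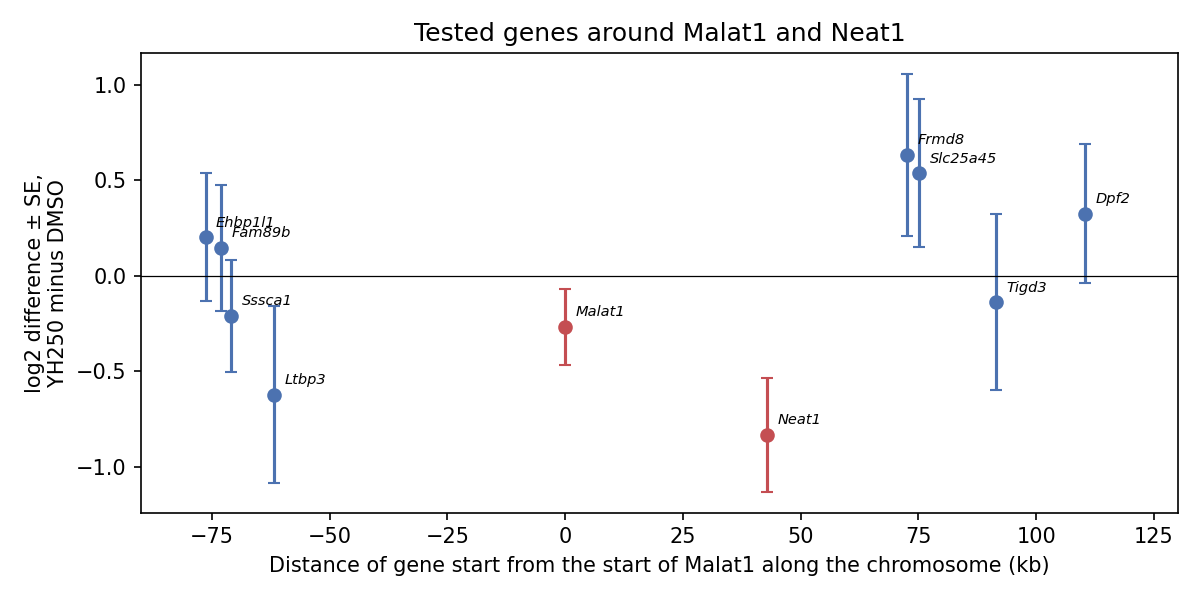
Log2 difference ± SE, YH250 minus DMSO (vertical axis), of the tested genes around Malat1 and Neat1, plotted by the distance of their start from the start of Malat1 along the chromosome in kb. Malat1 and Neat1 are red and the 8 neighbours blue. Neat1 is lowest at -0.83, and the neighbours run from -0.62 for Ltbp3 to 0.63 for Frmd8.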

How the data were processed

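Poly(A) RNA of 3 YH250 and 3 DMSO libraries was made into cDNA with the SMARTer Ultra Low Input kit and sequenced as 50 bp single-end reads, per the labels' protocols. Per the submitters' processing notes, TopHat2 2.0.8, CASAVA 1.8.2 and Partek were used with build mm10, in roles not stated. Annotation, counting and use of strand were not given in the sources used here. For each gene and library the authors deposited 1 normalized signal, with no unit stated. From the values it was read as RPM plus an offset of 1: the lowest value is 1 in every column, and of the values worth at most 20 reads 61.1% to 68.4% were whole reads to within 0.1. Since the others were not, no count model was fitted.

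Here 1 was subtracted, 40254 genes were given symbols and positions from GENCODE M21, and genes averaging 1 RPM or more were fitted on log2(RPM + 1), which understates the change of low genes. The fit used limma 3.58.1 in R 4.3.3 (lmFit, eBayes with trend and robust), 3 against 3 libraries, Benjamini-Hochberg over all genes at 0.05, and was tested on simulated data. The members and lists were chosen with earlier results of these data known. Beside the members, the text names the 3 genes of smallest unadjusted p per list and contrast, tested neighbours within 100 kb, the 5 genes nearest in pattern, and others said to be chosen by value; not every such gene is reported here. Deviations from the group means of same-numbered libraries correlated at 0.55, 0.26 and 0.70. Those of differently numbered libraries correlated at -0.55 to 0.14. The members were therefore also given within numbers and with the number as a block, although the labels do not say what the numbers mark. The main fit of YH250 minus DMSO had no term for the number. Alternatives covered pseudocount, minimum, scaling, weights, block and each library left out.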

Additional observations from a re-analysis of the deposited data

How the results depend on the processing

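The number of genes called between YH250 and DMSO was 0 in all 14 other settings, the replicate block included, where the smallest adjusted p was 0.66, so the block changed no call. The estimate of Neat1 was below 0 in all 14, at -0.83 (SE 0.18) with the block, -0.91 after quantile normalization, -0.93 per total of the genes and -0.58 with array weights, and from -1.04 to -0.61 with 1 library left out. Malat1 stayed below 0 in all 14, at -0.43 after quantile normalization, -0.36 per total of the genes and -0.16 with array weights, and from -0.40 to -0.09 with 1 library left out. Pspc1 changed sign in 4 settings, at -0.07 per total of the genes and at -0.15, -0.02 and -0.01 without YH250 1, YH250 3 or DMSO 2.

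Counts between numbers moved more. Genes called for number 3 minus number 1 were 1164, against 180 with no minimum mean, 2641 with array weights and 414 (without DMSO 3) to 2944 (without YH250 2) with 1 library left out. For number 3 minus number 2 they were 858, against 42 with no minimum mean and 252 (without DMSO 3) to 3122 (without DMSO 2) with 1 library left out. For number 2 minus number 1 they were 27, against 0 with no minimum mean, 75 with a minimum of 5 RPM, 46 after quantile normalization and 43 (without DMSO 1) to 1743 (without DMSO 2) with 1 library left out. The cause was not tested. With 1 library left out, the lone library of a number is assumed to vary like the others.

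A total of 3 libraries per group limit each estimate, and the depth behind Pspc1 was 370.0 to 821 reads.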
